A study of Mus musculus with 9 samples.

Results

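Tmem176a and Tmem176b, a head-to-head gene pair on mouse chromosome 6, were followed in RNA-sequencing values of splenic myeloid-derived suppressor cells (MDSCs), immature myeloid cells that expand in tumour-bearing animals and restrain T cells. The pair comprises 2 of the 23284 gene symbols measured, was located by symbol, and had been chosen from these same values, namely the lower level of both genes in p16/p21-DKO than in WT Mo-MDSCs and their common movement across samples. The levels and group differences of the pair are therefore a description, and no test is given for them. The 9 samples form 3 groups of 3. WT PMN-MDSCs, the granulocytic Ly6G+ subset, and WT Mo-MDSCs, the monocytic Ly6G- Gr-1+ subset, came from C57BL/6J mice labelled p16/p21 wild-type. The remaining group was Mo-MDSCs from mice labelled p16/p21 double knockout (DKO), on a C57BL/6 strain label, by label without the CDK inhibitors p16 and p21 in the whole animal. All mice carried subcutaneous spindle cell tumour (SCT) cells, a line derived from a p16-knockout mouse. Every sample is labelled spleen, with an age of 3 weeks. In the methods 3 weeks is the time between inoculation and collection, and the mice were already older than that when injected. The age label was therefore read as time after inoculation. Cells were isolated with magnetic beads. Nothing in the labels says that the 3 samples of a group came from separate mice or pools, so any p-value measures only the spread between these samples, which may be technical.

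The gene-level values did not show the deletion. Cdkn1a, which encodes p21, was at 5.55, 8.52 and 6.00 FPKM in replicates 1 to 3 of the DKO-labelled Mo-MDSCs and at 8.18, 6.46 and 8.04 FPKM in WT Mo-MDSCs, so these groups overlapped, and at 2.95, 1.83 and 2.40 FPKM in PMN-MDSCs. FPKM is the read fragment count divided by transcript length and by sequencing depth. Cdkn2a, which encodes p16, did not exceed 1.47 FPKM in any sample and was at 0.258, 0.586 and 0 FPKM in the DKO-labelled samples. Which part of each gene was removed is not given in the sources used here, and the group is called DKO-labelled throughout.

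Tmem176a and Tmem176b encode small membrane proteins that cross the membrane 4 times and belong, by sequence, to the MS4A family of CD20-like proteins. They sit mainly in intracellular vesicles, have been described as cation channels, and are known from dendritic cells, monocytes and macrophages, and some lymphocytes. In background work Tmem176b is known as a brake on the NLRP3 inflammasome, the complex that activates caspase-1 and IL-1beta, and both proteins have been linked to antigen presentation by MHC class II molecules.

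Both genes lie next to each other on chromosome 6 and are transcribed away from a shared stretch of DNA. In GRCm38, the assembly also called mm10, GENCODE places Tmem176b (ENSMUSG00000029810.15) on the minus strand at chr6:48833818-48841496 with 12 transcripts and Tmem176a (ENSMUSG00000023367.14) on the plus strand at chr6:48840919-48847071 with 7 transcripts. The annotated genes overlap by 578 bases at their 5′ ends, of which 81 bases are exonic in both. In the RefSeq table the most upstream Tmem176a start, at position 48841483, and the nearest Tmem176b start, at position 48841374, are 109 bases apart. The 300-base RefSeq window around the Tmem176a start is shown because it holds a start of each gene. It runs along the plus strand of GRCm38.p6 at chr6:48841233-48841532, and capitals mark the 110 bases from the Tmem176b start to the Tmem176a start, both included, of which 63.6% are G or C.
Tmem176a promoter window: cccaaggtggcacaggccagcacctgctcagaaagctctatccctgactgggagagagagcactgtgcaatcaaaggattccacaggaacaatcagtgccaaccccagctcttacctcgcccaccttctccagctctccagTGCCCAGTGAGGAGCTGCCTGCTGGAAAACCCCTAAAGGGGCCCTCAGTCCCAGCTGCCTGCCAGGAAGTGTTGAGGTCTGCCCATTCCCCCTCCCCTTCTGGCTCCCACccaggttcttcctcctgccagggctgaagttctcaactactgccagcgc
Core promoter and factor motifs were searched on both strands of this window and of the window around the Tmem176b start, which overlaps it by 208 bases. The TATA-box letters TATAAA matched in neither window and occur in 13.6% of the 32851 promoter windows of that length. The nuclear receptor half-site AGGTCA also matched in neither, and 16.3% of all windows hold it. The CCAAT box and the GC box GGGCGG were absent from both windows too, with shares of 37.4% and 35.7% over all windows. GAGGAAG, of the type bound by the myeloid factor PU.1, matched at 1 site, on the minus strand just downstream of the Tmem176a start. That site lies in the shared bases, so both windows count it. The letters are present in 13.6% of all windows. These are matches of letters, not binding sites.

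In WT Mo-MDSCs both genes were abundant and tight between samples. Tmem176b was at 144, 149 and 157 FPKM in replicates 1 to 3, a mean of 150.0 ± 6.29 (SD, n = 3), and ranked between 482 and 525 among the 15163 to 15422 genes above 0 in these samples. Tmem176a was at 58.8, 72.4 and 64.0 FPKM, a mean of 65.1 ± 6.87 (SD, n = 3), and ranked between 1099 and 1442. Neither gene's values overlapped those of any other group.

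The DKO-labelled Mo-MDSCs held less of both. Tmem176b was at 54.5, 69.7 and 61.7 FPKM (62.0 ± 7.57, SD, n = 3) and Tmem176a at 23.4, 31.3 and 25.6 FPKM (26.8 ± 4.08, SD, n = 3). The highest DKO-labelled sample lay below the lowest WT Mo-MDSC sample for each gene. In these libraries Tmem176b ranked between 1158 and 1494 and Tmem176a between 2839 and 3639.

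PMN-MDSCs had the lowest levels and the widest spread. Tmem176b was at 22.2, 43.2 and 19.98 FPKM (28.5 ± 12.8, SD, n = 3) and Tmem176a at 16.9, 29.5 and 16.2 FPKM (20.9 ± 7.48, SD, n = 3). Replicate 2 was high for both genes while replicates 1 and 3 lay close together. The same library had the lowest S100a8 of its group, a neutrophil gene, at -0.56 from the group mean on the log2 scale. The part of this difference in the level of the pair was not tested.

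**Figure D1:**
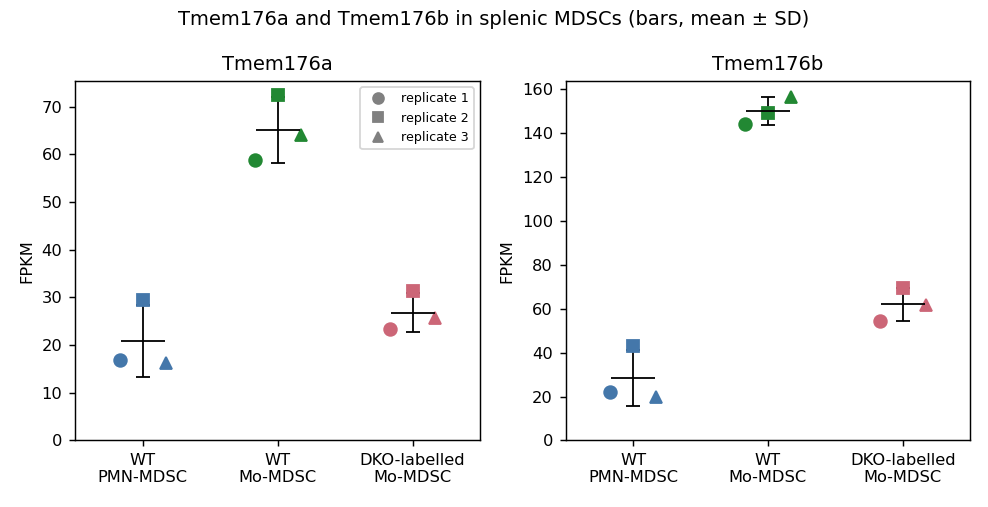
FPKM of Tmem176a (left) and Tmem176b (right) in each of the 9 samples, with marker shape for the replicate number, a horizontal bar for the group mean and error bars of 1 SD. WT Mo-MDSCs, at 58.8 to 72.4 FPKM for Tmem176a and 144 to 157 for Tmem176b, lie above all other samples, and PMN-MDSC replicate 2 stands above the other PMN-MDSC samples in both panels.

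The order of the levels was therefore PMN-MDSC, DKO-labelled Mo-MDSC, WT Mo-MDSC for both genes. For Tmem176b no neighbouring groups overlapped. For Tmem176a the PMN-MDSC range of 16.2 to 29.5 FPKM overlapped the DKO-labelled range of 23.4 to 31.3 FPKM, so these groups did not differ beyond their spread. Because the samples are bulk RNA, fewer cells of a type and less RNA per cell cannot be told apart.

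WT Mo-MDSCs were compared with PMN-MDSCs to ask how the subsets differ in tumour-bearing WT mice. On the scale of log2(FPKM + 0.1) Tmem176b was higher in WT Mo-MDSCs by 2.48 ± 0.27 (SE), which is 5.59-fold, and Tmem176a by 1.69 ± 0.23 (SE), which is 3.22-fold. By size of increase these were positions 104 and 180 of the 11491 genes tested, whose median difference was 0.01. Both members passed the adjusted threshold of 0.05 in limma, at which 18.5% of the genes tested were higher and 20.6% lower. Since the pair was chosen with these values known, nothing is read from that. Without PMN-MDSC replicate 2 the differences became 2.83 ± 0.09 and 1.96 ± 0.11 (SE). With same-numbered samples treated as pairs (a replicate block) the differences were unchanged, with an SE of 0.21 for Tmem176b and 0.13 for Tmem176a.

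DKO-labelled Mo-MDSCs were compared with WT Mo-MDSCs to ask how this subset differs between the genotype labels. Here the members moved by almost the same amount, as Tmem176b differed by -1.28 ± 0.10 and Tmem176a by -1.28 ± 0.13 (SE) on the log2 scale. The WT mean was 2.43-fold higher for each on that scale. Counted from the largest decrease, these were positions 60 and 58 of 11451 genes, with a median of -0.02 over all of them. Both members were among the 10 genes that passed the adjusted threshold of 0.05 downwards in limma, 0.0873% of those tested, while 19 genes, 0.166%, passed it upwards. Ly6i, Fosb, Bex6, Ggh, Il1rn, Socs3, Padi2 and 9130008F23Rik were the other genes that passed downwards, at -3.56 to -0.85 on the log2 scale. Without DKO Mo-MDSC replicate 3, or without WT Mo-MDSC replicate 3, 1 gene passed downwards and Tmem176a was not called, with differences of -1.26 and -1.29, and with all 9 samples in 1 fit 26 genes passed and Tmem176b was not called. Without WT Mo-MDSC replicate 1 the downward count was 2, and without DKO Mo-MDSC replicate 1 or 2 it was 5 or 6, with both members called each time. With replicates 2 and 3 only, neither member was called. The rule that chose the pair used this contrast, so its presence in that count is given without a test.

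Against PMN-MDSCs, DKO-labelled Mo-MDSCs had Tmem176b higher by 1.20 ± 0.27 (SE) and Tmem176a by 0.40 ± 0.23 (SE) on the log2 scale. Only Tmem176b was separated without overlap between these groups. Set against the WT Mo-MDSC mean, the DKO-labelled mean was 41.3% for Tmem176b and 41.1% for Tmem176a, and the PMN-MDSC mean was 18.96% and 32.1%.

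**Figure D2:**
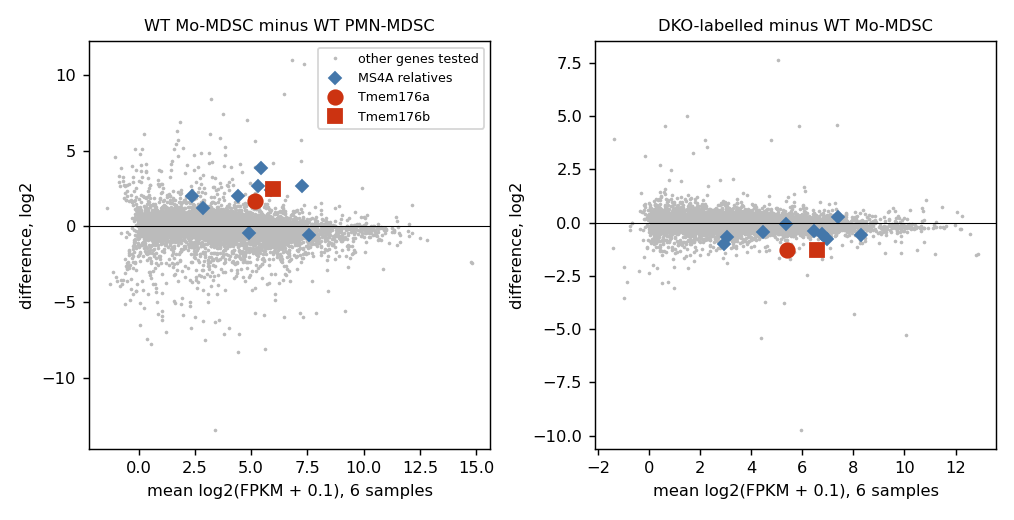
Difference on the log2 scale against mean log2(FPKM + 0.1) for every gene tested, WT Mo-MDSCs minus PMN-MDSCs at left and DKO-labelled minus WT Mo-MDSCs at right, with the pair in red and the MS4A relatives as blue diamonds. The pair sits at 1.69 and 2.48 on the left and at -1.28 for both genes on the right, where most genes lie close to 0.

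The ratio between the partners differed between the subsets and overlapped between the genotype labels. Per length, Tmem176b exceeded Tmem176a in all 9 samples. The ratio of Tmem176b to Tmem176a was 2.45, 2.06 and 2.45 in replicates 1 to 3 of WT Mo-MDSCs and 2.33, 2.23 and 2.41 in the DKO-labelled samples. In PMN-MDSCs it was 1.31, 1.46 and 1.24, below every Mo-MDSC sample. On the log2 scale the mean ratio was 1.21 ± 0.15 in WT Mo-MDSCs, 1.21 ± 0.06 in DKO-labelled Mo-MDSCs and 0.42 ± 0.12 in PMN-MDSCs (SD, n = 3 each). PMN-MDSCs therefore lay further below WT Mo-MDSCs in Tmem176b than in Tmem176a.

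**Figure D3:**
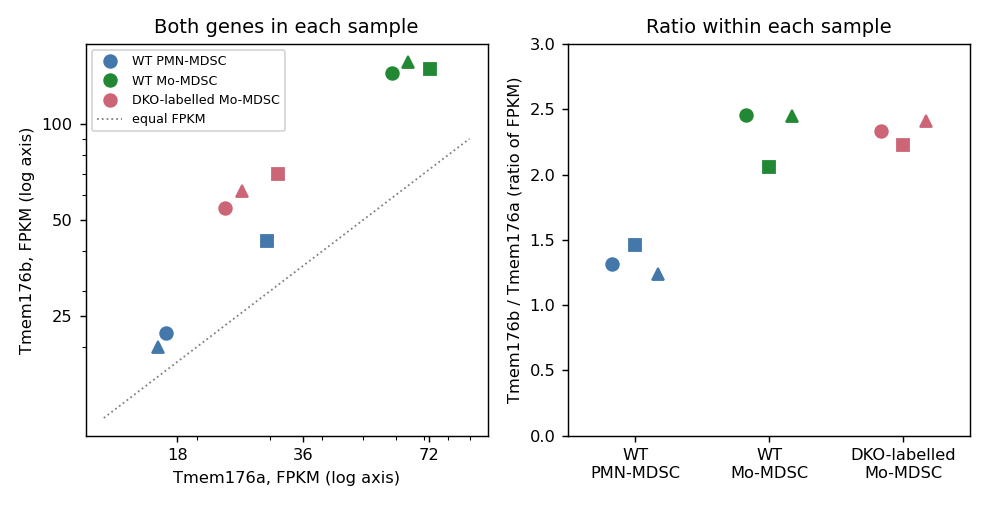
Tmem176b against Tmem176a in each of the 9 samples on log axes in FPKM, with a dotted line of equal values (left), and their ratio in each sample (right), with marker shape for the replicate number as in the plot of levels by group. The Mo-MDSC samples of both genotypes share ratios of 2.06 to 2.45, and the PMN-MDSC samples lie nearer the line of equality at 1.24 to 1.46.

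Within groups the partners tended to move together, most visibly in PMN-MDSCs. There Tmem176a and Tmem176b deviated from their group means by -0.24 and -0.27 in replicate 1, by 0.55 and 0.69 in replicate 2 and by -0.31 and -0.42 in replicate 3 on the log2 scale. In the DKO-labelled samples the deviations were -0.18 and -0.18 in replicate 1, 0.24 and 0.18 in replicate 2, and -0.05 and 0.00 in replicate 3. WT Mo-MDSCs showed little common movement, with deviations between -0.14 and 0.16 for Tmem176a and between -0.06 and 0.06 for Tmem176b. Tmem176a was highest in replicate 2 of every group, and Tmem176b in replicate 2 of the PMN-MDSCs and the DKO-labelled cells.

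Likeness of pattern was measured as the root mean square difference between the gene-centred log2(FPKM + 0.1) values of 2 genes over the samples, which falls to 0 for genes that change by equal amounts. Over the 6 Mo-MDSC samples each member was the nearest of 11450 genes to the other, at 0.090. Over all 9 samples, where the unequal PMN-MDSC levels count, the distance was 0.387, and Tmem176a was then the 4th nearest of 11725 genes to Tmem176b and Tmem176b the 11th nearest to Tmem176a. The 9 points share libraries and fall into 3 groups, so these ranks are a description of the group pattern. The pair was chosen for its common movement across these same samples, so the ranks give no independent evidence of it.

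The 8 genes nearest to Tmem176a over 9 samples included Aldh1b1, a mitochondrial aldehyde dehydrogenase, at 0.276, Nr4a1, a nuclear receptor, at 0.342, and Rwdd2a, H1f0, Lgals1, Crip1 and Matk at up to 0.377. The 8 nearest to Tmem176b included Olfm1 at 0.332, Bex6 at 0.369, Map3k6 at 0.372 and Tmem176a, with Rnd3, Lsr and Lrrc8b at up to 0.426. Lgals1, which encodes galectin-1, had means of 53.0 FPKM in PMN-MDSCs, 131 in WT Mo-MDSCs and 88.2 in DKO-labelled Mo-MDSCs, the same order as the pair.

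Genes around the pair did not share its values. RefSeq annotates 65 other genes within 500 kb, 27 of them protein-coding, and 28 were found among the symbols measured. The low-value filter was passed by 19. Between WT Mo-MDSCs and PMN-MDSCs limma called 2 of 19 higher and 6 of 19 lower, beside 18.5% and 20.6% of all genes, with a median of -0.15 beside 0.01 over all genes. Zfp467, a zinc finger gene 388 kb away, rose by 0.60 ± 0.12 (adjusted p = 0.00839) and Tra2a, a splicing regulator 398 kb away, by 0.47 ± 0.11 (adjusted p = 0.0137). Ccdc126, 473 kb from the pair on the other side of it from Zfp467, fell by 1.83 ± 0.20 (SE) (adjusted p = 0.000502). The other genes that fell were Lrrc61 and the GTPase genes Gimap1, Gimap6, Gimap7 and Gimap9, by 0.40 to 0.53.

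The Gimap cluster, genes of GTPases of lymphocytes, begins 63.0 kb from the pair with Gimap3 and is its closest expressed neighbourhood. All 8 of its genes were measured and none had a difference near those of the pair. Gimap6, the most abundant, averaged 108 ± 11.2 FPKM in PMN-MDSCs, 77.0 ± 6.68 in WT and 90.2 ± 15.7 in DKO-labelled Mo-MDSCs (SD, n = 3). Between DKO-labelled and WT Mo-MDSCs limma called 0 of the 19 neighbours at the adjusted threshold. At an unadjusted p below 0.05 it found 3 higher, Gimap3, Gimap8 and Gimap9, and 1 lower, Rarres2, which encodes the chemoattractant chemerin, where 5.27% of all genes tested were higher and 9.74% lower. Gimap3 differed by 0.48 ± 0.15 (SE) (limma, adjusted p = 0.221) and Rarres2 by -0.36 ± 0.13 (adjusted p = 0.280). The other 15, which include Repin1, Gimap4, Gimap5, Krba1, Zfp775, Zfp862, Gpnmb and 2410003K15Rik, passed neither threshold in that contrast. Sspo, Atp6v0e2, AI854703, Abp1, Igf2bp3, Gm5111, 1600015I10Rik, Doxl2 and Svs1 did not pass the low-value filter.

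**Figure D4:**
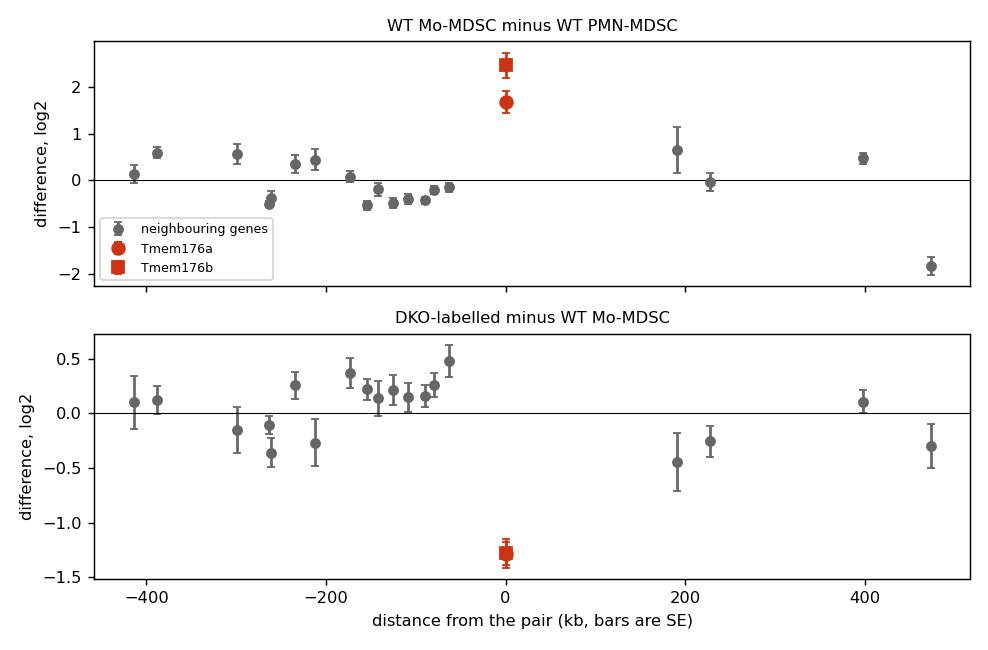
Difference on the log2 scale (error bars, SE) of the 19 neighbouring genes tested against their distance in kb from the pair, WT Mo-MDSCs minus PMN-MDSCs above and DKO-labelled minus WT Mo-MDSCs below, with the pair in red at 0 kb. No neighbour reached the pair in either panel, and the neighbours spanned -1.83 to 0.65 above and -0.44 to 0.48 below.

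Other genes that begin head to head were described in the same way. Among the promoter windows, 476 such pairs with starts within 300 bases had both genes tested. In 272 of them, 57.1%, both genes had the same sign in the contrast of the WT subsets, and in 271, 56.9%, between DKO-labelled and WT Mo-MDSCs. In the first contrast both genes passed 1 log2 unit in the same direction in 5 pairs, and Tmem176a with Tmem176b was the single one of these that increased. In the second it was the single pair of the 476. The gap between the partners' differences was 0.795 in the first contrast and 0.00287 in the second, beside a median gap of 0.287 and 0.155 over the pairs. The pair was chosen for its second contrast and its common movement across samples, and this survey was added after the values were seen. Its place in either contrast is therefore a description.

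The MS4A genes, the relatives of the pair by sequence, were next examined from a list of 18, of which 16 were found and 9 tested. In WT Mo-MDSCs against PMN-MDSCs limma called 6 of 9 higher and 1 lower, beside 18.5% and 20.6% of all genes, with a median difference of 2.01 beside 0.01 over all genes. With the replicate block all 9 were called, 7 higher and 2 lower, beside 27.6% and 29.7% of all genes. Ms4a6b rose the most, from 11.2 ± 2.53 to 165 ± 29.96 FPKM (SD, n = 3), by 3.88 ± 0.19 on the log2 scale (SE) (adjusted p = 1.96e-05). Ms4a6c, the most abundant relative in Mo-MDSCs, rose from 60.7 ± 6.85 to 386 ± 52.2 FPKM, by 2.67 ± 0.13 (adjusted p = 1.96e-05). Ms4a4b, Ms4a4c, Ms4a6d and Ms4a8a also rose, by 2.00 to 2.63. Ms4a7, a macrophage gene, fell by 0.46 ± 0.13 (adjusted p = 0.0305), and Ms4a1, which encodes the B-cell antigen CD20, differed by -0.59 ± 0.20 (adjusted p = 0.0517, and 0.000644 with the replicate block). Ms4a3, a gene of myeloid progenitors, was the other gene called with the block alone, at 1.18 ± 0.67 and adjusted p = 0.204 without it and 6.62e-05 with it (limma). Ms4a6b, Ms4a6c and Ms4a6d, like Ms4a4b and Ms4a4c, are close copies whose reads may have been divided between them.

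In DKO-labelled against WT Mo-MDSCs 8 of the 9 relatives lay below 0, with a median of -0.55 beside -0.02 over all genes. None passed the adjusted threshold in limma, and 5 passed an unadjusted p of 0.05 downwards, where 9.74% of all genes did. Ms4a6c was at 256 ± 36.4 FPKM in the DKO-labelled samples (SD, n = 3) and differed by -0.59 ± 0.15 (adjusted p = 0.172). Ms4a6b differed by -0.78 ± 0.16 (adjusted p = 0.132), Ms4a4b by -0.66 ± 0.16 (adjusted p = 0.169), Ms4a4c by -0.55 ± 0.17 (adjusted p = 0.219) and Ms4a7 by -0.44 ± 0.12 (adjusted p = 0.202). Ms4a8a was level in these groups, at 41.0 ± 5.28 and 42.1 ± 3.12 FPKM, with a difference of -0.04 ± 0.11 (adjusted p = 0.874). The values of the pair, -1.28 for both, lay below those of all 9 relatives in this contrast, whereas in the contrast of the subsets Ms4a6b, Ms4a6c and Ms4a6d exceeded both members.

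**Figure D5:**
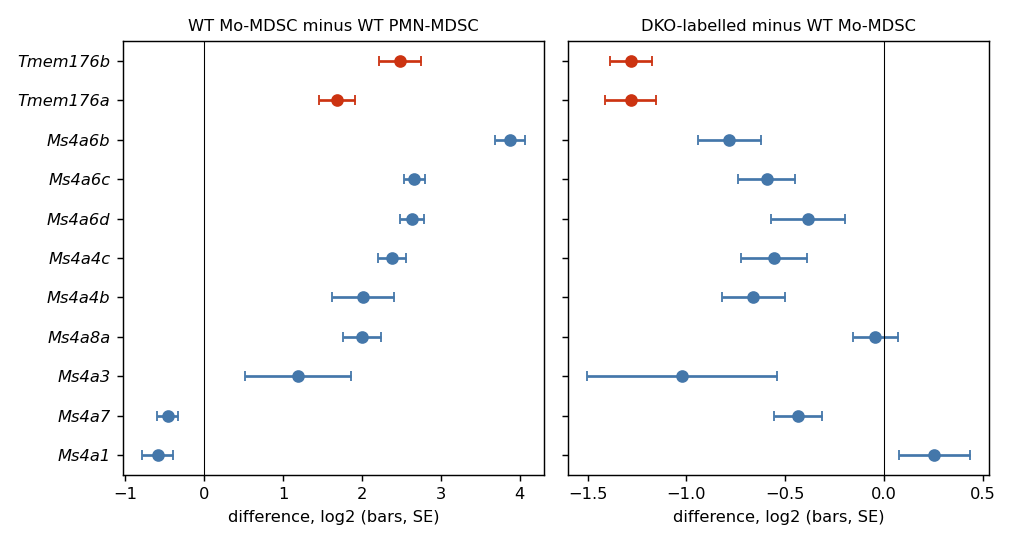
Difference on the log2 scale with SE for the pair (red) and the 9 MS4A relatives tested (blue), WT Mo-MDSCs minus PMN-MDSCs at left and DKO-labelled minus WT Mo-MDSCs at right. Relatives range from -0.59 to 3.88 on the left and from -1.02 to 0.26 on the right, where both members lie at -1.28.

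Because Tmem176b is known in connection with the NLRP3 inflammasome, a list of 16 genes was examined, all of which were tested. It holds components, regulators and products of the complex, and also the related genes Il1rn, Il1r2 and Card9, which are not parts of it. In Mo-MDSCs against PMN-MDSCs of WT mice limma called 4 of 16 higher and 6 of 16 lower, with a median of -0.04, beside 18.5% and 20.6% of all genes. Nlrp3 itself, the sensor, was at 52.2 ± 4.80 FPKM in PMN-MDSCs and 13.3 ± 0.852 in WT Mo-MDSCs (SD, n = 3), a fall of 1.96 ± 0.09 (SE) (adjusted p = 1.9e-05), so it was high where the pair was low. Il1b, which encodes the cytokine released after inflammasome activity, fell by 5.72 ± 0.16 (SE) (adjusted p = 3.13e-06), from 1737 to 33.1 FPKM. Txnip, a regulator of redox balance, fell by 1.39 ± 0.09 (adjusted p = 4.38e-05). P2rx7, the ATP-gated channel upstream of the complex, rose by 1.05 ± 0.09 (adjusted p = 0.000177). Unlike Nlrp3, the adaptor Pycard was higher where the pair was high, by 0.66 ± 0.10 (adjusted p = 0.00252). Casp8 and Panx1 were also called higher, and Casp4, Il1rn and Il1r2 lower. Casp1, the gene of caspase-1, was not called, at -0.05 ± 0.11 (adjusted p = 0.755).

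In DKO-labelled against WT Mo-MDSCs, where the pair was lower, Nlrp3 was not called, at 14.3 ± 0.962 FPKM and a difference of 0.10 ± 0.09 (limma, adjusted p = 0.622), nor was Il1b, at -0.39 ± 0.20 (adjusted p = 0.399). Of the 16 genes 10 lay below 0, and 5 passed an unadjusted p of 0.05 downwards and 0 upwards, beside 9.74% and 5.27% of all genes. At the adjusted threshold 1 gene fell and 0 rose. It was Il1rn, the IL-1 receptor antagonist, at 7.67 ± 1.19 FPKM in WT and 3.49 ± 0.13 in DKO-labelled Mo-MDSCs (SD, n = 3), with a fall of 1.10 ± 0.14 (SE) (adjusted p = 0.0299). That call was lost in 5 of the 6 fits that left out 1 library. The paper, in a separate display, describes Il1rn levels as alike in WT and DKO MDSCs. Nlrp3 and Il1b were measured as RNA, which does not report activity of the complex.

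The MHC class II list held 16 genes, all tested. In the contrast of the subsets limma called 4 higher and 3 lower, with a median of -0.21. These shares are near the 18.5% and 20.6% over all genes. When same-numbered samples were treated as pairs (a replicate block) it called 7 higher and 8 lower, where 27.6% and 29.7% of all genes were called. Ctss, the protease cathepsin S, rose by 0.75 ± 0.10 (SE) (adjusted p = 0.00138) and H2-Oa, a class II chaperone subunit, fell by 0.66 ± 0.10 (adjusted p = 0.00215). In DKO-labelled against WT Mo-MDSCs 13 of 16 lay above 0, with a median of 0.22, opposite to the pair. None passed the adjusted threshold, and 6 passed an unadjusted p of 0.05 upwards, where 5.27% of all genes did, and 1 downwards. Cd74, the invariant chain and most abundant of the list, ranged from 3422 to 3861 FPKM in WT Mo-MDSCs and averaged 5143 ± 207 FPKM in the DKO-labelled samples (SD, n = 3), without overlap, a difference of 0.52 ± 0.13 (limma, adjusted p = 0.175). H2-Aa, the alpha chain of I-A, differed by 0.55 ± 0.13 (adjusted p = 0.160). B cells also express these genes, and their 6 markers were likewise all above 0 in this contrast, with a summed level of 1188 to 1512 FPKM in the DKO-labelled samples and 1115 to 1265 FPKM in WT Mo-MDSCs. The part of B-cell RNA in these values was not tested.

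Dendritic cells are a known source of both members. Of 14 dendritic cell genes 13 were tested in the contrast of the subsets, where limma called 5 higher in Mo-MDSCs and 3 lower, beside 18.5% and 20.6% of all genes. Clec10a, a lectin shared with macrophages, rose by 3.71 ± 0.21 (SE) (adjusted p = 3.22e-05), Irf8, a transcription factor of monocytes and dendritic cells, rose by 0.45 ± 0.09 (adjusted p = 0.00638) and Cd24a fell by 1.04 ± 0.14 (adjusted p = 0.00121). In DKO-labelled against WT Mo-MDSCs 0 of 14 passed the adjusted threshold in limma, and 2 passed an unadjusted p of 0.05 in each direction, beside 5.27% of all genes upwards and 9.74% downwards. Flt3, at -0.59 ± 0.18, and Clec10a, at -0.37 ± 0.15, were the lower ones. Clec9a, at 0.39 ± 0.15, and Ccr7, at 0.55 ± 0.15, were the higher ones. The list's summed level was 494 to 619 FPKM in the DKO-labelled samples, which overlapped the 481 to 565 FPKM of WT Mo-MDSCs. Most of that sum was Cd24a, at means of 301 and 246 FPKM, and Irf8, at 147 and 138 FPKM. Cd24a differed by 0.28 ± 0.19 (adjusted p = 0.518) and Irf8 by 0.09 ± 0.08 (adjusted p = 0.612).

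Markers of other cells were set beside the pair. Limma called 5 of 6 monocyte markers higher in the WT Mo-MDSC group than in the PMN-MDSC group, beside 18.5% of all genes. Ccr2 in PMN-MDSCs was 0.740% of its WT Mo-MDSC mean and F13a1 0.538%, whereas Ly6c2 was 35.8% and Csf1r 94.5%, so the share of 32.1% for Tmem176a and 18.96% for Tmem176b lay above those of Ccr2 and F13a1. In DKO-labelled Mo-MDSCs the summed level of the 6 was 1587 to 1723 FPKM, below the 1941 to 2181 FPKM of WT Mo-MDSCs. By mean, Ly6c2 stood at 54.0% of WT, Ccr2 at 55.1%, Cx3cr1 at 71.5%, Fn1 at 75.7%, F13a1 at 94.1% and Csf1r at 104%, all above the 41.1% and 41.3% of the pair. The first 4 of these passed an unadjusted p of 0.05 downwards, where 9.74% of all genes did, and none the adjusted threshold. Of the 7 neutrophil genes tested, 6 lay below 0 between these groups. None passed the adjusted threshold in limma, while 5 passed an unadjusted p of 0.05 downwards, where 9.74% of all genes did. Mmp8, a granule collagenase, passed that unadjusted threshold upwards, where 5.27% of all genes did. S100a8 was at 32.7% of its WT mean. In the contrast of the subsets 5 of the 7 were called lower in Mo-MDSCs, beside 20.6% of all genes, and Camp and Ltf were not called.

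Red pulp macrophage genes summed to 6811 to 9833 FPKM in the DKO-labelled samples and 5405 to 6481 FPKM in WT Mo-MDSCs. All 10 lay above 0, and Hmox1, heme oxygenase 1, was the single one called (limma, adjusted p = 0.0299). Over all genes 0.166% were called higher in that contrast. With the replicate block 0 of the 10 were called, beside 0.122% of all genes called higher. The 5 erythroid genes measured summed to 260 to 488 FPKM and 191 to 499 FPKM in these groups. The 6 B-cell markers summed to 1115 to 1758 FPKM over the 9 samples, highest in PMN-MDSCs, while 6 T-cell markers summed to at most 36.3 FPKM and 5 NK-cell markers to at most 3.29 FPKM. The lymphocyte cytokine genes Il17a and Il22 were listed at 0 in all 9 samples. Plasmacytoid dendritic cell genes summed to 105 to 162 FPKM over the samples, most of it Bst2, with Siglech at group means of 0.272 to 0.716 FPKM. Apart from the values given, the part of other cells in the levels of the pair was not tested.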

How the data were processed

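RNA of 9 splenic MDSC samples was measured as FPKM. The authors prepared stranded mRNA libraries, sequenced 75-base single-end reads, mapped them to mm10 with TopHat2 2.0.13, Bowtie2 2.2.3 and SAMtools 0.1.19, and deposited FPKM values from Cuffnorm 2.2.1, 1 table per sample. The gene annotation, library scaling and strand setting are not given in the sources used here. No 75-base run of their GENCODE transcripts is shared between the members, on either strand, or with another gene. Read depth is not in the tables. The value of 1 read, compared among genes under 0.5 FPKM with a tolerance of 0.002 on the log2 scale, gave relative depths of 0.809 to 1.31 against WT Mo-MDSC replicate 1, lowest in PMN-MDSC replicate 1. The tables hold no counts, so no count test was run.

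Groups and replicate numbers came from the labels. Values were transformed to log2(FPKM + 0.1), kept where 3 or more of a contrast's 6 samples reached 1 FPKM, and fitted with limma 3.58.1 (lmFit, eBayes with trend) in R 4.3.3. P-values were adjusted by Benjamini-Hochberg over all genes tested, and each ± after a log2 difference is its SE. The fit was tested on simulated data. The members and lists were chosen with earlier results of these data known, and the motifs and the head-to-head pairs after the values were seen. The genes named are the members, Cdkn1a and Cdkn2a, the 8 nearest to each member, neighbours within 500 kb, and in each list the largest called rise and fall and the 2 highest by mean FPKM. Other genes named from the lists, such as Nlrp3 and the further MS4A and marker genes, were added after their values were seen. Some genes that fall under this rule are not reported here. Symbols missing from the tables were looked up as RefSeq synonyms.

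Replicate 1 of each group carries an earlier library number than replicates 2 and 3, and fits on the latter alone were made. Deviations from group means of same-numbered WT Mo-MDSC and PMN-MDSC samples correlated across genes at 0.29, 0.48 and 0.20, so the number was taken to pair them. The main fits hold no term for this pairing, which entered only as the replicate block. The alternatives were pseudocounts of 1 and 0.01, other filters, all 9 samples in 1 fit, quantile normalization, the replicate block, and leaving out each sample.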

Additional observations from a re-analysis of the deposited data

How the results depend on the processing

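The log2 differences of both members kept their sign, and moved by less than the SD between replicates, under all 14 alternatives of each comparison. Leaving out 1 library at a time gave 1.53 to 1.96 for Tmem176a and 2.27 to 2.83 for Tmem176b between WT Mo-MDSCs and PMN-MDSCs, highest without PMN-MDSC replicate 2, and -1.40 to -1.19 and -1.37 to -1.19 between DKO-labelled and WT Mo-MDSCs. With replicates 2 and 3 only, the latter were -1.26 and -1.22, and with quantile normalization -1.23 and -1.17. Between WT Mo-MDSCs and PMN-MDSCs quantile normalization gave 1.84 for Tmem176a and 2.71 for Tmem176b. Tmem176a and Tmem176b were next counted against the adjusted threshold between DKO-labelled and WT Mo-MDSCs. Among the 14 alternatives of that comparison Tmem176a passed the adjusted threshold in 11 and Tmem176b in 12. Tmem176a did not without DKO Mo-MDSC replicate 3 (-1.26), without WT Mo-MDSC replicate 3 (-1.29) or with replicates 2 and 3 only. Tmem176b did not with all 9 samples in 1 fit or with replicates 2 and 3 only. The pair was chosen from this contrast, so these calls describe the settings and are no test of the pair. The log2 ratio of the partners in DKO-labelled Mo-MDSCs was 1.27 after quantile normalization in place of 1.21. By likeness over 9 samples Tmem176b ranked between 3 and 16 from Tmem176a, and Tmem176a between 2 and 14 from Tmem176b, with either other pseudocount, Pearson r or replicates 2 and 3 only.

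The count of genes called between DKO-labelled and WT Mo-MDSCs was 29, and became 51 with all 9 samples in 1 fit, 13 without a filter, 6 with replicates 2 and 3 only (all higher) and 8 to 25 without 1 library, lowest without DKO Mo-MDSC replicate 3. It was 12 without DKO Mo-MDSC replicate 1 or 2 and 9 without WT Mo-MDSC replicate 1 or 3. Il1rn was lost, leaving 0 genes of the inflammasome list, without a filter, with replicates 2 and 3 only and without any of those 5 libraries (range 0 to 1). Quantile normalization called 2 MHC class II genes. Between WT Mo-MDSCs and PMN-MDSCs replicates 2 and 3 alone called 2759 genes in place of 4492, 5 neighbours in place of 8 and 5 dendritic cell genes in place of 8. These fits hold fewer samples. The replicate block called 6584 genes there, 15 MHC class II genes in place of 7 and 4 B-cell markers in place of 2, and moved the counts of the neighbours and of the MS4A, inflammasome and dendritic cell genes by less than 1.5 times. In DKO-labelled against WT Mo-MDSCs same-numbered samples correlated at 0.35, 0.23 and -0.07, and differently numbered ones at -0.39 to 0.17. Same-numbered samples also carry consecutive library numbers, and what else they share is not given. The block called 20 genes in that comparison. Where a fit leaves 2 samples in a group, limma assumes that they vary like the others. FPKM without read counts gives no counting error for the pair.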
